A study of Sus scrofa with 9 samples.

Results

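The 7 genes EGF, AREG, TGFA, EGFR, TGFB1, TGFB2 and TGFB3, of the epidermal growth factor (EGF) and transforming growth factor beta (TGF-beta) systems, were followed across farrowing in mammary tissue of the Large White pig breed. They were chosen by symbol in the array annotation, and all 7 symbols had a probe set of their own, 13 of the 23999 endogenous probe sets. EGF, AREG and TGFA had 1 probe set each, EGFR, TGFB1 and TGFB3 had 2 each and TGFB2 had 4; the probe sets of one gene are called A to D here. The gland of each of 6 sows on a corn and soybean meal diet was biopsied 17 days before farrowing (day -17, late pregnancy), on day 1 of lactation and on day 17, at peak lactation. Each array held RNA pooled equally from 2 sows, which gave 3 pools on each of the 3 days and 9 Affymetrix porcine GeneChips. The labels describe no treatment, all sows shared breed and husbandry, and the labels do not say whether a pool number stands for the same sows on each day.

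EGF, TGF-alpha (from TGFA) and amphiregulin (from AREG) are made as membrane-anchored precursors. Proteases of the ADAM family release them, and they bind the receptor tyrosine kinase EGFR, which acts through RAS and MAP kinases, PI3 kinase and STAT factors. EGF is a known component of milk, and in the mouse amphiregulin acts through EGFR of the stroma in duct growth at puberty. The TGF-beta ligands are secreted in latent form, held by their propeptide and matrix proteins, and signal after activation through TGFBR2 and TGFBR1 to SMAD factors. In the mouse mammary gland TGFB1 restrains duct growth, and TGFB3 is induced when milk stasis starts involution.

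The values are MAS5 signals on a linear scale, and a signal is compared here between arrays for the same probe set, never between probe sets. A probe set was tested if it reached the 40th percentile of the array (signals of 82.1 to 94.2) on at least 3 of the 9 arrays. Of the 13 probe sets, 9 passed, covering every gene except AREG. Differences are log2 differences ± standard error from limma over 15519 tested probe sets, with n = 3 pools per day and an adjusted p of 0.05 as threshold. The comparisons share arrays, so their results are not independent of each other. Over 21 control probe sets, which measure bacterial (E. coli) transcripts spiked into the hybridization mix, the median log2 signal was 0.44 higher on day 1 and 1.28 higher on day 17 than on day -17, and 0.89 higher on day 17 than on day 1. Scaling each array to the mean of these controls, called E. coli scaling below, lowered every log2 difference by 0.43 for day 1 against day -17, 0.87 for day 17 against day 1 and 1.30 for day 17 against day -17. The 15519 tested probe sets then had medians of -0.49, -0.88 and -1.38, in place of -0.065, -0.0092 and -0.081. All directions below are relative to the deposited scaling unless E. coli scaling is named.

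EGF showed the widest change of the 7 genes. Its signal was 106, 65.0 and 70.3 in the day -17 pools, 4369, 1600 and 2529 in the day 1 pools and 7204, 6150 and 6047 in the day 17 pools. The days did not overlap: each day 1 pool lay above every day -17 pool, and each day 17 pool above every day 1 pool. Of all 15519 tested probe sets, the pools did not overlap in 40.8% for day 1 against day -17, 34.7% for day 17 against day 1 and 59.0% for day 17 against day -17. On day -17 the probe set reached the filter level in 1 pool, so the folds against that day start from a dim signal.

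EGF rose on day 1 to a mean of 2832 ± 1409, against 80.4 ± 22.2 on day -17 (SD, n = 3 pools each). The log2 difference was 5.05 ± 0.32, a fold of 33.2 with a 95% interval of 20.4 to 54.1 (limma adjusted p = 7.95e-06). With a pseudocount of 16 the fold was 27.7. On day 17 the mean of 6467 ± 640 stood 82.1-fold above day -17 (log2 difference 6.36 ± 0.32, interval 50.4 to 133.8, adjusted p = 6.93e-07), or 68.2-fold with that pseudocount. Among the 15519 tested probe sets, EGF ranked 13th from the top by log2 difference for day 1 against day -17 and 14th for day 17 against day -17. These calls held under each of the 19 alternatives tried, E. coli scaling included (4.62 and 5.06).

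EGF was also 2.47-fold higher on day 17 than on day 1 (1.31 ± 0.32, interval 1.52 to 4.03, adjusted p = 0.0243). This call ended without pool 2 or 3 of day 1 (limma adjusted p = 0.0571 and 0.0669) or without any pool of day 17 (0.081, 0.0649 and 0.0642 for pools 1, 2 and 3). It also ended with E. coli scaling (log2 difference 0.43, adjusted p = 0.257), and over the 19 alternatives the adjusted p ran from 0.00405 to 0.257. The day 1 pools spread most, with pool 1 at 4369 and pool 2 at 1600.

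AREG was dim. Its signal was 59.5, 299 and 58.6 in the day -17 pools, 4.50, 38.4 and 2.34 in the day 1 pools and 1.90, 10.5 and 40.7 in the day 17 pools. Only day -17 pool 2 reached the filter level, so AREG was not among the tested probe sets. Each day -17 pool lay above all 6 later pools, and days 1 and 17 overlapped. Without a filter, AREG did not pass for day 1 against day -17 (log2 difference -3.78, adjusted p = 0.0739) or for day 17 against day -17 (-3.44, adjusted p = 0.0602). With a pseudocount of 16 its day 1 signal was 4.43-fold and its day 17 signal 4.04-fold lower than on day -17.

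TGFA had signals of 152, 410 and 229 in the day -17 pools, 57.2, 119 and 91.2 in the day 1 pools and 164, 72.1 and 130 in the day 17 pools. All day 1 pools lay below the day -17 pools, whereas day 17 overlapped with both other days. TGFA fell on day 1 by 1.51 on the log2 scale (SE 0.44, adjusted p = 0.0319), a 2.85-fold lower signal, or 2.55-fold with a pseudocount of 16. That call ended without pool 2 or 3 of day -17 (0.112 and 0.0766) or pool 1 or 3 of day 1 (0.0708 and 0.0772), and the adjusted p of the 18 alternatives ran from 0.00509 to 0.112. On day 17 the log2 difference to day -17 was -1.07 ± 0.44 (adjusted p = 0.0671). It passed without day -17 pool 1 (0.0319) and with E. coli scaling (-2.38, 0.000373), within a range of 0.000373 to 0.241. For day 17 against day 1 the difference was 0.44 ± 0.44 (adjusted p = 0.536) and turned to -0.44 with E. coli scaling.

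Among other ligands of this family, HBEGF, which encodes heparin-binding EGF, was the 1 of 8 listed genes with a probe set. It did not reach the filter level on 3 arrays and was not tested, with signals of 10.7, 11.5 and 7.97 in the day -17 pools, 45.4, 6.25 and 25.8 in the day 1 pools and 73.3, 62.7 and 78.4 in the day 17 pools. ERBB2, ERBB3 and ERBB4, the other receptors of the family, had no probe set under their own symbol here.

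**Figure D1:**
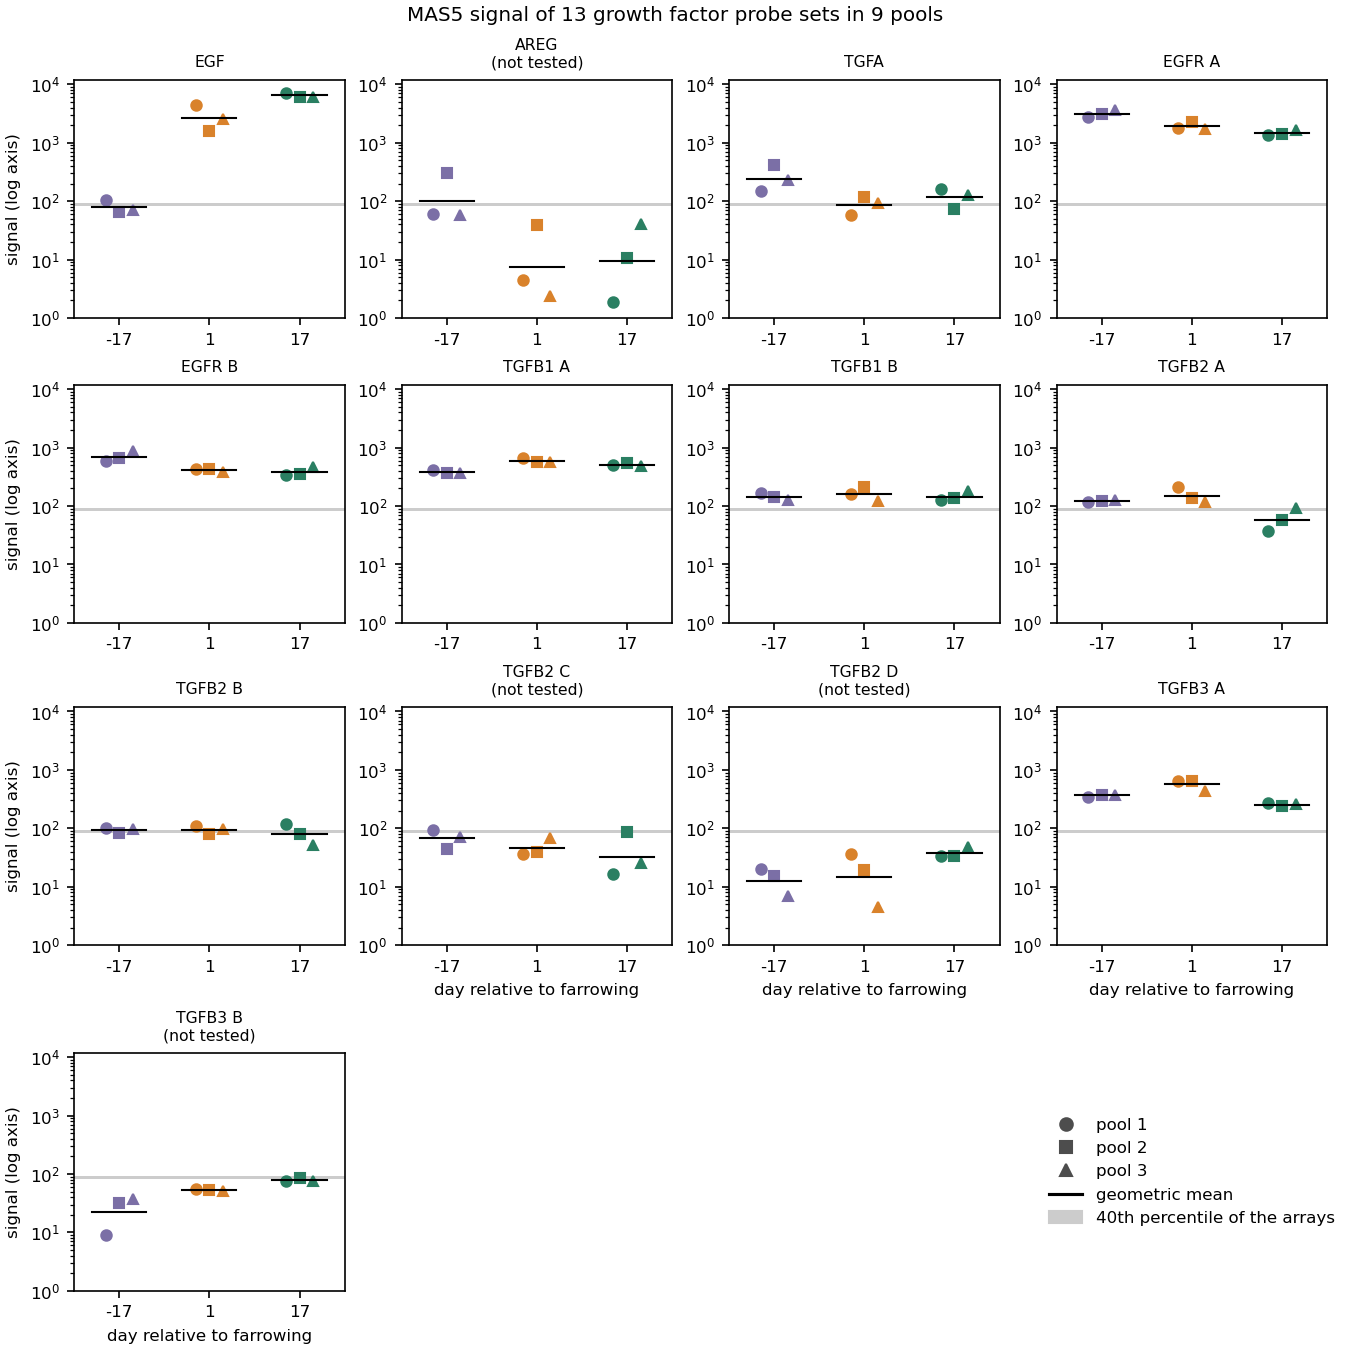
MAS5 signal (log axis) of each of the 13 probe sets by day relative to farrowing, 1 marker per pool, with the geometric mean of the 3 pools as a bar and the 40th percentile of the arrays as a grey band. EGF climbs from the band on day -17 to between 6047 and 7204 on day 17, both EGFR probe sets are highest on day -17, and TGFB3 A is highest on day 1.

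EGFR, the receptor of these ligands, fell across farrowing in both of its probe sets. EGFR A had signals of 2775, 3041 and 3586 in the day -17 pools, 1791, 2270 and 1750 in the day 1 pools and 1340, 1393 and 1636 in the day 17 pools. EGFR B had signals of 599, 671 and 864, then 436, 430 and 385, and then 339, 349 and 460 in the pools of days -17, 1 and 17. In both, every day -17 pool lay above all 6 later pools. The days 1 and 17 were apart in the first probe set and overlapped in the second. Over the 9 arrays the log2 signals of the 2 probe sets had a Pearson r of 0.947, given as a description.

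On day 1 EGFR was lower by 1.62-fold in EGFR A (log2 difference -0.70 ± 0.15, adjusted p = 0.0096) and by 1.69-fold in EGFR B (-0.76 ± 0.18, adjusted p = 0.0156) than on day -17. The second call ended without day -17 pool 3 (0.0627) or day 1 pool 3 (0.0581), within a range of 0.00105 to 0.0627 over 19 alternatives. On day 17 it was lower than on day -17 by 2.15-fold (-1.10 ± 0.15, adjusted p = 0.000338) and 1.86-fold (-0.89 ± 0.18, adjusted p = 0.00321), and these calls held under all 19 alternatives. Between day 17 and day 1 neither probe set passed (-0.41 ± 0.15, adjusted p = 0.1, and -0.14 ± 0.18, adjusted p = 0.656). With E. coli scaling both did (-1.28, 8.1e-05, and -1.01, 0.000732), at the low end of ranges up to 0.264 and 0.887.

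TGFB1, a secreted ligand with a broad role in tissue growth and matrix production, was higher after farrowing in 1 of its 2 probe sets. TGFB1 A had signals of 412, 370 and 369 in the day -17 pools, 664, 560 and 570 in the day 1 pools and 496, 540 and 476 in the day 17 pools, with no overlap between any 2 days. It rose 1.56-fold on day 1 (0.64 ± 0.14, adjusted p = 0.0103), a call that ended with E. coli scaling alone (0.21, adjusted p = 0.304; range 0.00442 to 0.304). On day 17 it was 1.31-fold above day -17 (0.39 ± 0.14, adjusted p = 0.0425). That direction depended on the scaling, since E. coli scaling gave a fall (-0.91, adjusted p = 0.000372). The rise also ended with no filter (0.0609), with the 6 samples alone (0.0543) and without any single array except day 1 pool 1, at adjusted p from 0.0501 without day 1 pool 3 to 0.123 without day 17 pool 2. Day 17 against day 1 did not pass (-0.24 ± 0.14, adjusted p = 0.273; -1.12 and 0.000245 with E. coli scaling).

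The other TGFB1 probe set, TGFB1 B, had signals of 165, 143 and 126 in the day -17 pools, 158, 208 and 120 in the day 1 pools and 125, 135 and 181 in the day 17 pools. Its days overlapped, and it passed in no comparison (adjusted p 0.741, 0.794 and 0.97 in limma). E. coli scaling gave it a fall on day 17 against day 1 (-0.99, adjusted p = 0.009) and against day -17 (-1.29, 0.00134). The 2 probe sets had a Pearson r of 0.177 over the 9 arrays, so the call for TGFB1 rests on 1 probe set.

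TGFB2, a ligand of the same receptors, was dim in all 4 of its probe sets. TGFB2 A had signals of 117, 123 and 129 in the day -17 pools, 213, 135 and 118 in the day 1 pools and 37.5, 57.6 and 91.8 in the day 17 pools. All day 17 pools lay below the 6 earlier ones, and the pools of days -17 and 1 overlapped. No day 17 pool reached the filter level, so the folds of that day end at a dim signal. On day 17 TGFB2 A was 2.58-fold lower than on day 1 (-1.37 ± 0.37, adjusted p = 0.035) and 2.11-fold lower than on day -17 (-1.08 ± 0.37, adjusted p = 0.0341). With a pseudocount of 16 these folds were 2.22 and 1.85. The first call ended with the 6 samples alone (0.0704) and without any single array except day -17 pool 1 and day 17 pool 3 (adjusted p from 0.0501 without day -17 pool 2 to 0.0952 without day 1 pool 1), and its lowest adjusted p was 0.00054 with E. coli scaling. The second ended without any pool of day -17 (0.0662, 0.0763 and 0.0887 for pools 1, 2 and 3) or pool 1 or 2 of day 17 (0.106 and 0.0712), and its lowest was 0.000159 with E. coli scaling.

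The other TGFB2 probe sets did not repeat this pattern. TGFB2 B had signals of 81.7 to 100.3 on day -17, 80.7 to 108 on day 1 and 52.4 to 120 on day 17, and it passed in no comparison with the deposited scaling (adjusted p = 0.976, 0.683 and 0.628). E. coli scaling gave it a fall on day 17 against day 1 (-1.11, adjusted p = 0.0176) and day -17 (-1.52, 0.00229). TGFB2 C (16.4 to 94.1 over the 9 arrays) and TGFB2 D (4.55 to 48.2) were not tested. In TGFB2 D the day 17 pools lay above the day -17 pools. Pairs of TGFB2 probe sets had Pearson r values of -0.513 to 0.324 over the 9 arrays.

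TGFB3, the third ligand, was highest on day 1 in its tested probe set. TGFB3 A had signals of 349, 375 and 378 in the day -17 pools, 636, 656 and 439 in the day 1 pools and 268, 242 and 259 in the day 17 pools. No 2 days overlapped. On day 17 it stood 2.22-fold below day 1 (-1.15 ± 0.18, interval of the fold 0.34 to 0.59, adjusted p = 0.00459), and this call held under all 19 alternatives (log2 differences of -2.03 to -1.05).

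On day 1 TGFB3 A was 1.55-fold above day -17 (0.63 ± 0.18, adjusted p = 0.0295). This call ended with E. coli scaling (0.20, adjusted p = 0.407), with the 6 samples alone (0.059) and without any pool of day -17 (0.0746, 0.0657 and 0.0695 for pools 1, 2 and 3) or pool 1 or 2 of day 1 (0.067 and 0.0979). On day 17 it was 1.43-fold below day -17 (-0.52 ± 0.18, adjusted p = 0.0355). That call ended with quantile-normalized (0.0945), median-centred (0.0574) or unfiltered signals (0.0516) and without any 1 of the 6 arrays compared (0.0564 without day -17 pool 1 to 0.0944 without day 17 pool 2). The other TGFB3 probe set, TGFB3 B, was not tested and had another order of days, lowest on day -17 and highest on day 17. Its signals were 8.91, 31.4 and 38.0 on day -17, 54.6, 52.4 and 50.9 on day 1 and 75.1, 84.1 and 74.5 on day 17, below the filter level on all arrays. Without a filter, TGFB3 B passed as a rise for day 17 against day -17 (log2 difference 1.82, limma adjusted p = 0.0248). It did not pass for day 1 against day -17 (1.26, 0.152) or day 17 against day 1 (0.56, 0.571). The fall of TGFB3 against day -17 was thus seen in TGFB3 A alone.

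By limma, 6 of the 9 tested probe sets passed for day 1 against day -17. Of these, EGF, TGFB1 A and TGFB3 A were higher and TGFA and both EGFR probe sets lower. Over all tested probe sets 24.1% passed in that comparison. In the comparison of day 17 with day 1, 3 passed (EGF higher, TGFB2 A and TGFB3 A lower), where 13.6% of all tested probe sets did. In that of day 17 with day -17, 6 passed (EGF and TGFB1 A higher, both EGFR probe sets, TGFB2 A and TGFB3 A lower), where 46.5% did. In the F test over the 3 days 7 passed, where 45.3% of all tested probe sets did. The probe sets that could pass were those bright on at least 3 arrays, so these counts describe the 9 and are not evidence about them as a set.

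**Figure D2:**
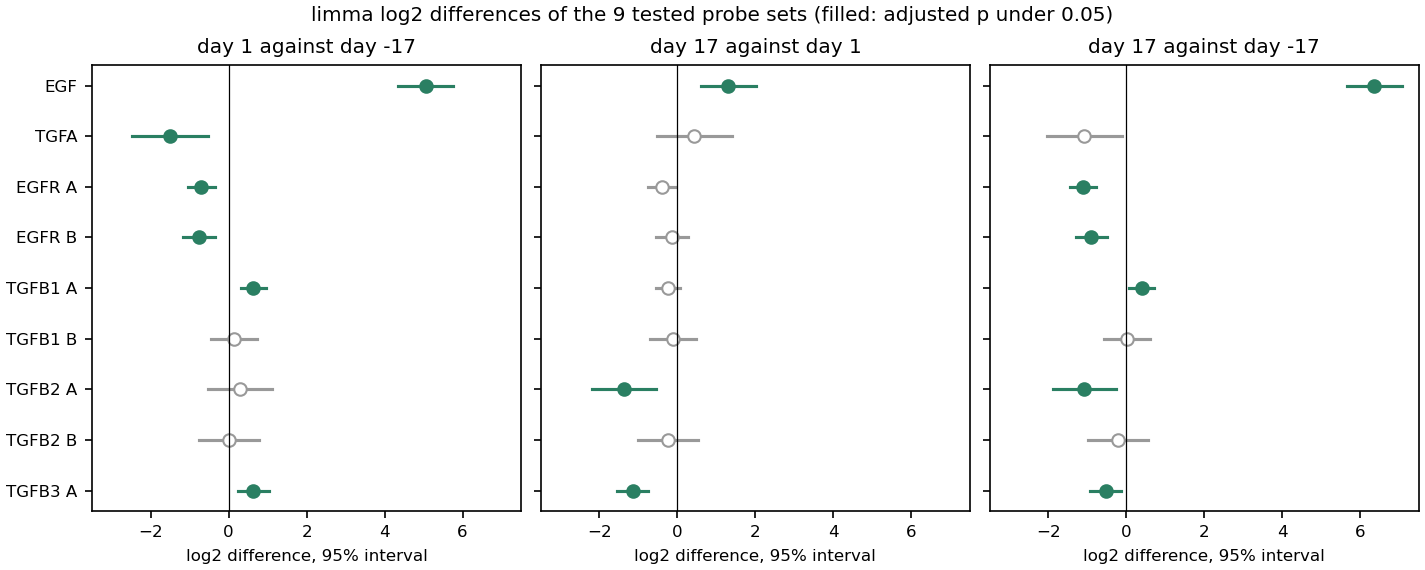
Log2 differences (x axis) with 95% intervals from limma for the 9 tested probe sets in the 3 comparisons, filled where the adjusted p was under 0.05. EGF stands at 5.05, 1.31 and 6.36, while every other probe set lies between -1.51 and 0.64.

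**Figure D3:**
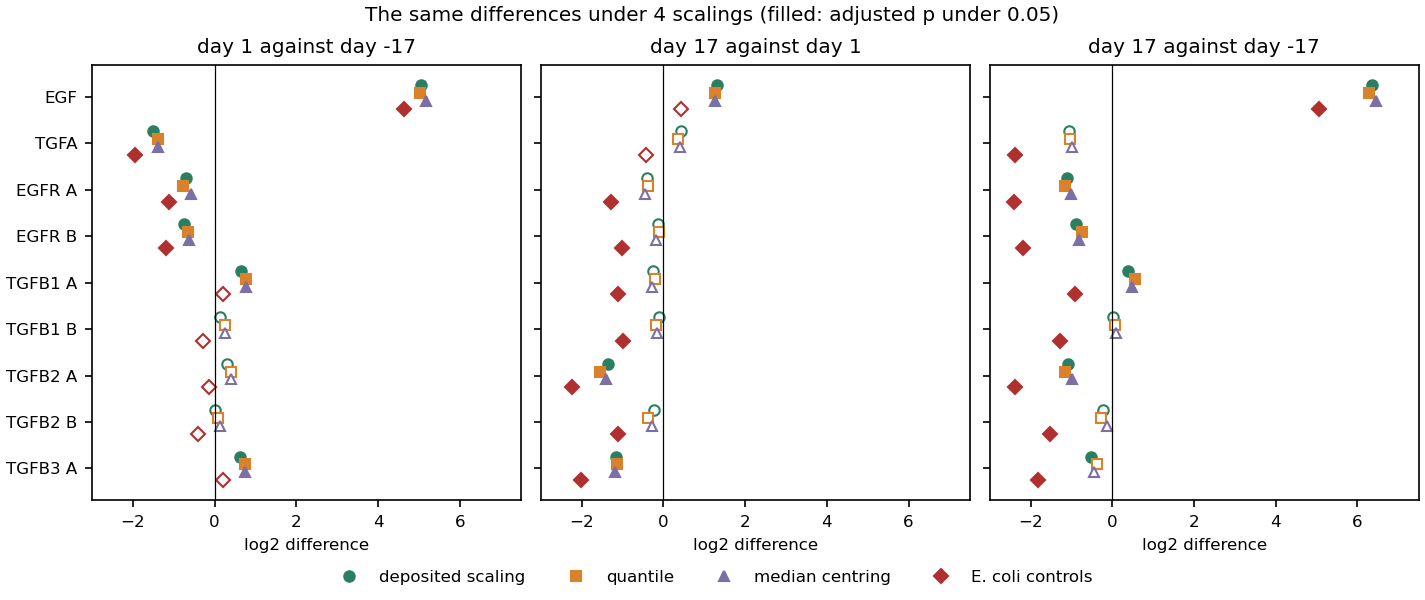
The same log2 differences under the deposited scaling, quantile normalization, median centring and E. coli scaling, filled where the adjusted p was under 0.05. The first 3 scalings lie close together, and E. coli scaling moves each point left by 0.43, 0.87 and 1.30 in the 3 comparisons, which turns TGFB1 A to a fall on day 17 against day -17 and puts TGFA below 0 on day 17 against day 1.

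For each probe set that passed the F test, the 3 genes with the most similar log2 signals over the 9 arrays are given as a description. The arrays share their days and sows, so a high r follows from any similar course over the 3 days. EGF was most like WFDC1, a WAP-domain protein (r = 0.995), SLC34A2, a sodium phosphate cotransporter (0.993), and PIGR, the receptor that carries IgA across epithelium (0.992). EGFR was most like RPL34, a ribosomal protein (0.990), UTP18 (0.986) and NUMA1, a spindle protein (0.978), in EGFR A, and like EXOC2, an exocyst subunit (0.979), PSMB10, an immunoproteasome subunit (0.972), and PHC1, a Polycomb protein (0.969), in EGFR B. TGFB1 was most like MSN, moesin (0.961), EPAS1, a hypoxia-inducible factor (0.956), and DAB2, an endocytic adaptor (0.956). TGFB3 was most like CYR61, a matricellular protein (0.944), FEZ2 (0.938) and ATG4B, an autophagy protease (0.934). TGFB2 was most like VGLL3 (0.949), PTGFRN (0.930) and AP2S1 (0.927), and TGFA like MYOM2 (0.967), ADCK5 (0.948) and SCG5 (0.942).

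Of 170 further gene symbols of these pathways, in 11 lists, 73 genes were tested. For day 17 against day -17, 10 (13.7%) were higher and 27 (37%) lower, with a median log2 difference of -0.46, beside 23.8% higher and 23.8% lower and a median of -0.03 over the 5670 tested genes. For day 17 against day 1, 5 (6.85%) were higher and 16 (21.9%) lower (median -0.35), where 8.02% and 8.57% of all tested genes were. For day 1 against day -17 the counts were 8 (11%) and 8 (11%) with a median of -0.04, where the shares over all tested genes were 15.3% and 10.4%. Named genes and values below are for day 17 against day -17, and E. coli scaling lowered each of these differences by 1.30. With it, 471 of all 15519 tested probe sets were called higher and 12685 lower on day 17 than on day -17, so falls were common everywhere. In the 9 lists described next, 0 genes were higher. The counts of lower genes were 5 of 5 in the list of ligand release, 13 of 15 in the EGFR cascade, 4 of 4 feedback inhibitors, 8 of 9 MAP kinase response genes, 2 of 3 TGF-beta receptors, 3 of 4 SMADs and cofactors, 8 of 8 latency and activation genes, 6 of 7 inhibitors of the TGF-beta pathway and 17 of 18 TGF-beta targets.

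Of 5 tested genes that carry out or regulate the release of EGF family ligands (3 ADAM proteases, the inactive rhomboid RHBDF2 and the inhibitor TIMP3), 1 rose and 1 fell (median 0.07). ADAM17, the main protease for TGF-alpha and amphiregulin, rose (0.79 ± 0.19, adjusted p = 0.00655), but fell with E. coli scaling (-0.52, adjusted p = 0.0202, within a range of 0.00259 to 0.025). ADAM15 fell (-2.62 ± 0.41, adjusted p = 0.000747) to a mean of 51.2 on day 17, below the filter level, against 306 on day -17. On day 17 against day 1, 0 rose and 1 fell, and on day 1 against day -17 none of the 5 passed by limma.

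Downstream of EGFR, 5 of 15 adaptors, kinases and other signal carriers, among them PLCG1 and the STAT factors, rose and 2 fell (median -0.09). The adaptor GRB2 rose 2.37-fold (1.24 ± 0.13, adjusted p = 6.98e-05) and the kinase AKT1 2.32-fold (1.21 ± 0.12, adjusted p = 5.08e-05), whereas with E. coli scaling they stood at -0.061 and -0.089 and did not pass. PLCG1, a phospholipase, fell (-0.87 ± 0.19, adjusted p = 0.00411), as did STAT5A, a factor also activated by prolactin (-0.82 ± 0.25, adjusted p = 0.0233). The STAT5A call ended without pool 2 of day -17 or pool 1 or 3 of day 17 (at most 0.0835), and 1 of its 3 tested probe sets had the opposite sign. The list had 4 rises and 2 falls on day 1 against day -17, and 4 and 1 on day 17 against day 1.

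Of the 4 tested inhibitors that feed back on EGFR, 0 rose and 2 fell (median -0.54). They were DUSP6, the ERK phosphatase (-1.10 ± 0.20, adjusted p = 0.00166), and PTPN1, which dephosphorylates EGFR (-0.52 ± 0.17, adjusted p = 0.0295; lost with quantile normalization and without pool 2 or 3 of day -17 or any pool of day 17, at most 0.112). Of 9 genes that answer to MAP kinase signalling, 1 rose and 4 fell (median -0.94). EGR1 (-1.69 ± 0.32, adjusted p = 0.00188) and JUN (-1.24 ± 0.39, adjusted p = 0.0242; lost without pool 1 of day -17 or pool 2 of day 17, at most 0.0921) fell, and DUSP1, a MAP kinase phosphatase, rose (1.53 ± 0.19, adjusted p = 0.000183; 0.22 and 0.31 with E. coli scaling).

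On the TGF-beta side, 0 of 3 tested receptors passed in any of the 3 comparisons with the deposited scaling. TGFBR3, the coreceptor betaglycan, had a log2 difference of 0.85 ± 0.33 (adjusted p = 0.0586). It passed in 8 of 19 alternatives, among them pool number as a random block or a fixed one (0.0151), and turned to -0.46 with E. coli scaling (range 0.0151 to 0.255). Of 4 tested SMADs and cofactors, 0 rose and 1 fell (median -0.39), namely SMAD4, the common partner of the receptor-activated SMADs (-0.82 ± 0.15, adjusted p = 0.00203).

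Of 8 tested genes of TGF-beta latency and activation, 0 rose and 4 fell (median -1.30). The matrix metalloproteinases MMP2 (-2.52 ± 0.37, adjusted p = 0.000509) and MMP14 (-1.56 ± 0.21, adjusted p = 0.000269) fell under all 19 alternatives. Of 7 tested inhibitors of the pathway, 1 rose and 5 fell (median -1.09). BAMBI, a decoy receptor, fell (-3.46 ± 0.29, adjusted p = 2.18e-05) to a mean of 39.6 on day 17, below the filter level, against 447 on day -17. PMEPA1, a SMAD target that limits SMAD activation, fell 2.33-fold (-1.22 ± 0.17, adjusted p = 0.000388), although 1 of its 4 tested probe sets had the opposite sign. FST, follistatin, which binds activins, rose 2.98-fold (1.57 ± 0.20, adjusted p = 0.000221; 0.27 and 0.219 with E. coli scaling).

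Of 18 tested TGF-beta target genes, 2 rose and 8 fell (median -0.76). VCAN, the matrix proteoglycan versican (-2.69 ± 0.23, adjusted p = 2.32e-05), and TIMP1, a metalloproteinase inhibitor (-1.92 ± 0.16, adjusted p = 2.38e-05), fell under all 19 alternatives. BHLHE40, a transcriptional repressor, rose (1.96 ± 0.32, adjusted p = 0.000814; 0.66 and 0.081 with E. coli scaling). ACTA2, smooth muscle actin and also a marker of myoepithelium, rose (0.52 ± 0.14, adjusted p = 0.0108), but fell with E. coli scaling (-0.78) and did not pass after quantile normalization (0.852). On day 17 against day 1 the target list had 0 rises and 5 falls of 18 (beside the 8.02% and 8.57% over all genes). On day 1 against day -17 it had 2 rises and 1 fall (beside 15.3% and 10.4%). CYR61, the closest gene to TGFB3 above, belongs to this list and had mean signals of 525, 1146 and 353 on days -17, 1 and 17.

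**Figure D4:**
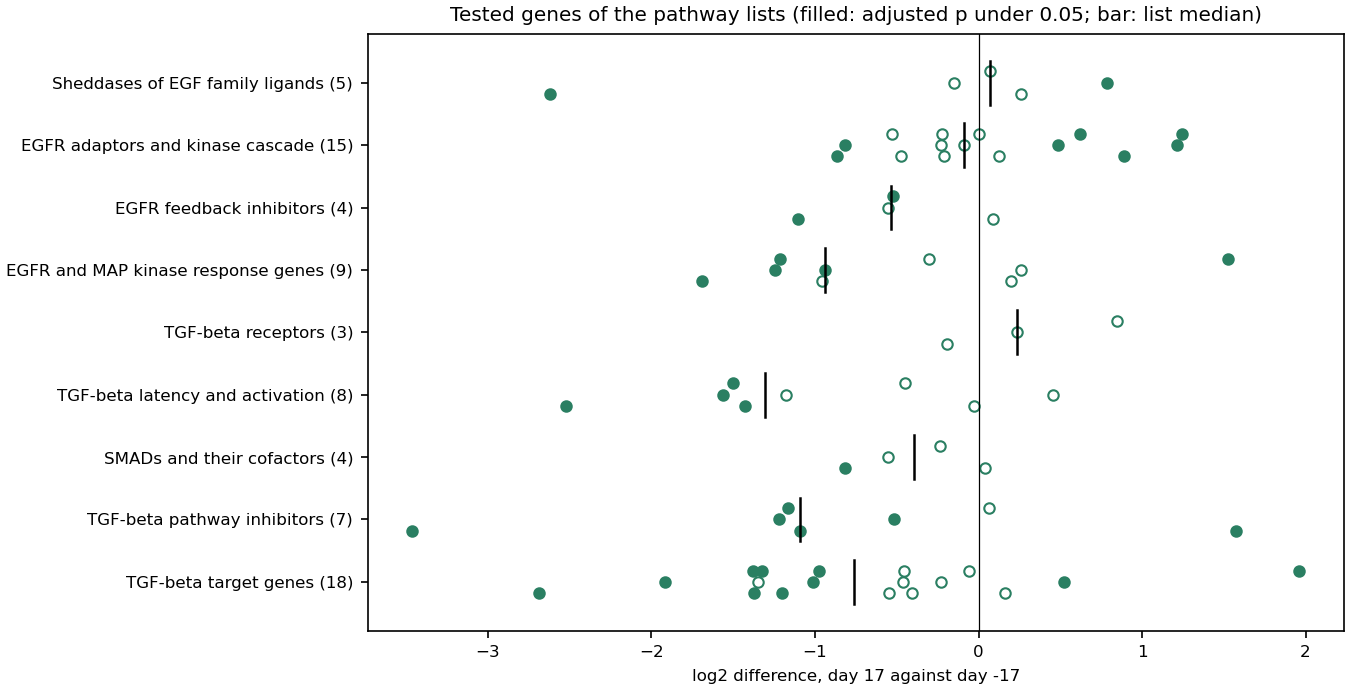
Log2 differences (x axis) of the tested genes of each pathway list for day 17 against day -17, filled where the adjusted p was under 0.05, with the list median as a bar and the number of tested genes in brackets. The latency and activation list has its median at -1.30 and the inhibitor list at -1.09, while the list of sheddases and their regulators has its median at 0.07 with the deposited scaling, and E. coli scaling would move all points left by 1.30.

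Markers of other cells moved over the same days, and their part in these results was not tested. In such tissue samples fewer cells of a type and less RNA per cell cannot be told apart. The tissue label was checked with 7 milk protein genes, all past the filter, which had a summed signal of 60484 to 85934 on day -17, 216822 to 304309 on day 1 and 458643 to 468487 on day 17, the same order of days as EGF. The 8 fibroblast markers with a probe set, all past the filter, summed to 50859 to 70053 on day -17, 24998 to 63046 on day 1 and 23166 to 24766 on day 17. Of these, 0 rose and 7 fell on day 17 against day -17, beside the falls of EGFR and of the TGF-beta targets. The fibroblast markers COL1A2 and COL3A1 are also in the target list, and DCN is also in the list of TGF-beta pathway inhibitors. The 6 markers of proliferating cells, all past the filter, summed to 2861 to 5540 on day -17, 2956 to 5700 on day 1 and 1587 to 2110 on day 17. EGFR A and B, TGFB2 A, B and C and TGFB3 A also had their lowest day mean on day 17. In EGFR B, TGFB2 B and TGFB2 C, the last not tested, the pools of days 1 and 17 overlapped. Not all probe sets shared this order. By day mean, EGF and TGFB1 A were lowest on day -17 and TGFA on day 1. TGFB2 D and TGFB3 B, both not tested, were highest on day 17. The 6 macrophage markers summed to 10988 to 12722 on day -17, 6488 to 17594 on day 1 and 5370 to 7347 on day 17. Of 4 neutrophil markers 2 passed the filter, and the list summed to 1081 to 1427 on day -17, 21261 to 25161 on day 1 and 16526 to 28204 on day 17, lowest on the day on which EGF was lowest. PGLYRP1, a peptidoglycan recognition protein, made up most of that sum, with mean signals of 999, 23443 and 22711 on days -17, 1 and 17, while the defining markers S100A8 and S100A9 did not reach the filter level.

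Of the other marker lists, on day 17 against day -17, 3 of 9 luminal genes rose and 3 fell, 4 of 5 myoepithelial genes rose and 0 fell, and 0 of 6 endothelial genes rose and 1 fell. Of the 6 adipocyte genes 2 rose and 3 fell, of 4 T and NK cell genes 0 and 0 passed, of 2 neutrophil genes 1 rose and of 4 platelet and erythrocyte genes 1 rose and 2 fell. The milk protein genes rose in 7 of 7 cases, of the macrophage genes 1 rose and 2 fell, and of the 6 proliferation genes 0 rose and 5 fell. ESR1, KDR, CD3D, CD3G, CD4, S100A8, S100A9 and PPBP did not reach the filter level on 3 arrays. With E. coli scaling the rises and falls were 1 and 6 of the luminal genes, 1 and 2 of the myoepithelial, 0 and 6 of the endothelial, 0 and 5 of the adipocyte, 0 and 3 of the T and NK cell, 1 and 1 of the neutrophil and 0 and 3 of the platelet and erythrocyte genes. They were 5 and 0 of the milk protein, 0 and 8 of the fibroblast, 0 and 5 of the macrophage and 0 and 6 of the proliferation genes. Over all 15519 tested probe sets they were 471 and 12685, beside 3367 and 3856 with the deposited scaling.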

How the data were processed

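The deposited values are intensities, 1 linear MAS5 signal per probe set and array, made by the authors with MAS5 per the submitters' processing notes, with no version given. The arrays share a mean signal near 500.1 after trimming 2% at each end. The file holds 24123 probe sets, of which 124 controls were left out. Of the other 23999, 10069 had 1 symbol in the platform annotation, 198 several and 13732 none here. The log2 of each signal, without a pseudocount, was fitted with limma 3.58.1 in R 4.3.3 (lmFit, eBayes with an intensity trend), all 9 arrays, day as the only term, two-sided tests, Benjamini-Hochberg adjustment within each comparison. A gene of a list was represented by its brightest tested probe set. No p below 0.1 is possible in an exact test of 3 pools against 3, so none was run. In a simulation of day 17 against day -17 with 15519 probe sets, 31 of 100 changes of 2-fold and 78 of 100 changes of 4-fold were recovered. Only 115 probe sets were called there, beside 46.5% of those tested in the data. With so few changes the adjustment is stricter than in the data, so these rates do not measure the power here.

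The 7 genes and the lists were chosen with earlier results of these data known. Of the 170 pathway symbols, 80 were in the annotation and 1 (CCN1) was found under its older name. The text names each probe set of the 7 genes, the 2 largest called rises and falls of each list for day 17 against day -17 (the other comparisons are given as counts), the gene with the smallest F-test p from a list without calls, and the 3 most similar genes of each probe set past the F test. Pool numbers were checked by correlating deviations from the day means across probe sets: same-numbered pools had r of 0.235 to 0.506 for day 1 against day -17, 0.105 to 0.130 for day 17 against day -17 and 0.096 to 0.107 for day 17 against day 1, and other pairs -0.387 to 0.113. The number was used as a block in alternatives. Replicates are pools of 2 sows, so p-values measure the spread between pools. Arrays give no depth, and their number limits the precision. Alternatives are described with their effect below. No sequence was used here. The probe sets lettered in the text are EGFR A (Ssc.12121.1.S1_at) and B (Ssc.55.1.S1_at), TGFB1 A (Ssc.76.3.S1_a_at) and B (Ssc.76.1.S1_a_at), TGFB2 A (Ssc.92.1.S1_at), B (Ssc.12131.1.A1_at), C (Ssc.10287.1.A1_at) and D (Ssc.92.1.A1_at), and TGFB3 A (Ssc.27593.1.S1_at) and B (Ssc.6138.1.S1_at).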

Additional observations from a re-analysis of the deposited data

How the results depend on the processing

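Besides the 9 fits that each left out 1 array, 10 alternatives were run: quantile normalization, median centring, E. coli scaling, signals plus a pseudocount of 16, all probe sets unfiltered, a filter at the 60th percentile, eBayes without the intensity trend, the 6 samples alone (no F test) and the pool number as a block, either fixed or random. A further fit for the list counts used the mean over the tested probe sets of each gene. Over all these settings 921 counts of the pathway lists stayed equal or close and 159 moved. Of the tests of the 9 growth factor probe sets, 427 kept direction and side of the threshold, 52 lost a call, 8 gained one and 14 turned. The number of growth factor probe sets called was 6, 3, 6 and 7 (day 1 against day -17, day 17 against day 1, day 17 against day -17, F test). Leaving out 1 array gave 3 to 6, 1 to 3, 3 to 6 and 6 to 7, and the other alternatives gave 4 to 6, 2 to 7, 5 to 9 and 5 to 9. With E. coli scaling the counts of the 3 comparisons were 4, 7 and 9, in the same order. The cause was not tested.

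Same-numbered pools had higher correlations than other pairs in every comparison. The ranges were 0.235 to 0.506 beside -0.387 to 0.113 for day 1 against day -17. For day 17 against day -17 they were 0.105 to 0.130 beside -0.074 to -0.042. For day 17 against day 1 they were 0.096 to 0.107 beside -0.077 to -0.027. The pool number as a block changed no call of the growth factor probe sets, with log2 differences unchanged (EGF 5.05, 1.31 and 6.36). It brought TGFBR3 past the threshold for day 17 against day -17 and, as a fixed block, for day 17 against day 1.

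With E. coli scaling these log2 differences turned. For day 1 against day -17 they were TGFB1 B -0.29, TGFB2 A -0.14, TGFB2 B -0.41 and TGFBR3 -0.41. For day 17 against day 1 they were TGFA -0.44, AKT1 -0.33, PDPK1 -0.37 and TGFBR3 -0.047. For day 17 against day -17 they were TGFB1 A -0.91, TGFB1 B -1.29, ADAM17 -0.52, GRB2 -0.061, AKT1 -0.089, TGFBR3 -0.46 and ACTA2 -0.78. Leaving out 1 array turned differences near 0. TGFB1 B then ranged from -0.064 to 0.34 for day 1 against day -17, from -0.32 to 0.078 for day 17 against day 1 and from -0.14 to 0.12 for day 17 against day -17. TGFB2 B ranged from -0.080 to 0.13, -0.53 to 0.068 and -0.51 to 0.086, and TGFBR3 from -0.34 to 0.29 for day 1 against day -17.

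Over all tested probe sets, 3736, 2116 and 7223 were called, and 7028 by the F test. E. coli scaling gave 7085, 11114, 13156 and 13280, mostly lower (814 higher and 6271 lower, 112 and 11002, 471 and 12685, beside 1860 and 1876, 1090 and 1026, 3367 and 3856). Median centring gave 2282 higher and 1251 lower for day 1 against day -17. Without day -17 pool 3 or day 1 pool 3 the first count was 2324 or 2110. Without day 1 pool 2 or 3 or day 17 pool 1, 2 or 3 the second was 1397, 1329, 1079, 1168 or 1049. With 3 pools a day and 4 of 13 probe sets near background, small changes of dim genes could not be resolved.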
